A study of Mus musculus with 6 samples.

Results

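Macrophage and myeloid genes were followed in the mouse aorta after a high fat diet. The members are 37 listed genes, and a gene entered through the probe sets that the platform annotation gives to it alone. With 1 probe set per gene, the one of highest mean signal over the 6 arrays, 36 of the 37 were measured among 12393 genes in all. Lilrb4a, an inhibitory receptor of myeloid cells, was left out because its 1 probe set carried several symbols. The members were sorted by role into 9 identity genes, 5 genes of leukocytes in general, 5 of adhesion and recognition, 3 of C1q, 4 of Fc receptors and their adaptors, 6 of resident macrophages and 4 of lipid-associated macrophages.

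Both groups were C57BL/6J mice, an inbred strain that gains weight on a fatty diet, and each array carried RNA pooled from 3 aortas. High fat replicates 2 and 3 came from males that began the diet at 10 weeks of age and stayed on it for 16 to 18 weeks. High fat replicate 1 had the same span on the diet, no stated sex and a stated age of 16 to 20 weeks. Its age at the start of the diet was not stated, and its age at collection is unclear. The chow replicates were males, aged 26 to 28 weeks in replicates 2 and 3 and of unstated age in replicate 1. No genetic alteration was named. In every pool the outer layer and the surrounding fat were described as taken off the vessel before extraction. The values are MAS5 signals, which are brightness values on a linear scale with 1 per probe set, and n = 3 pools per diet throughout.

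Macrophages are phagocytes that the vessel wall holds in a resident state, many of them in the adventitia, and that increase when monocytes enter from blood. Receptors with an activating motif in a partner adaptor, such as Tyrobp or Fcer1g, carry signals from antibodies and lipids into the cell, and Csf1r transmits the survival signal on which most macrophages depend. Resident macrophages are known for Mrc1, Cd163, Folr2, F13a1, Pf4 and Stab1, which serve in scavenging and tissue upkeep, whereas macrophages loaded with lipid in atheroma and obese fat are known for Trem2, Gpnmb, Lgals3 and Msr1. Spi1 encodes PU.1, the transcription factor that directs the myeloid programme and binds DNA around a GAGGAA core.

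The 250 bases before the transcription start were taken from RefSeq (build GRCm38.p6) for the members it listed, which gave 29 windows for 24 of the 36 members. Some windows of a gene with several starts overlap. The letters GAGGAA, on either strand, were found in 15 of the 29 windows and in 23.3% of all 32851 windows of that length. Their longer form GAGGAAGT, which contains the first, was found in 2, those of C1qc and Pf4, and in 2.4% of all windows. The AP-1 letters TGANTCA were in 5 windows against 6.7% of all, and the TATA letters TATAAA in 2 against 12.4% of all. A match describes letters and no binding was measured. The windows given here are those of C1qb and C1qc as neighbours on chromosome 4 whose signals varied alike, Cd68 and Laptm5 as members higher on high fat diet, Fcer1g as the member of smallest p, and Mrc1 as a resident gene with 3 matches. Capitals mark GAGGAA, which reads TTCCTC where it lies on the other strand, and TGANTCA.
C1qb, chr4:136886201-136886450, minus strand: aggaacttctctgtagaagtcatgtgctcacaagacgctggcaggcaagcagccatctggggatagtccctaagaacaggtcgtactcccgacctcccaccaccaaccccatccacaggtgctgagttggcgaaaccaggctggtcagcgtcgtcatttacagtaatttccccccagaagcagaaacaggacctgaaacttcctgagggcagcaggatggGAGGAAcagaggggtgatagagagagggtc
C1qc, chr4:136892915-136893164, minus strand: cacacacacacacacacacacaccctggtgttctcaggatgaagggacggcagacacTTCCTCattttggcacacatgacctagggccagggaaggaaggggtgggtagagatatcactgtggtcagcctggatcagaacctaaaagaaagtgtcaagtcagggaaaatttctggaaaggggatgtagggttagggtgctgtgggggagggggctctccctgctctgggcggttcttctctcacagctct
Cd68, chr11:69666171-69666420, minus strand: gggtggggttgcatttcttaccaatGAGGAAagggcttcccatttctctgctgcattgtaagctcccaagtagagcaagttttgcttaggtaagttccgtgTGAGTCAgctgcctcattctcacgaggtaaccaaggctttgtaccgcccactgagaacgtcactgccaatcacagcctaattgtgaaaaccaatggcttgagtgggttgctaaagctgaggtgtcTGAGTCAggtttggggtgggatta
Laptm5, chr4:130913066-130913315, plus strand: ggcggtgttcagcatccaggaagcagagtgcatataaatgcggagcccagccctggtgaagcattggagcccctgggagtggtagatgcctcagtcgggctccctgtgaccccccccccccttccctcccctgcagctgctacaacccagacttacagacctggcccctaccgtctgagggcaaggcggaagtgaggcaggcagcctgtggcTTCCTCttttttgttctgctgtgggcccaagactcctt
Fcer1g, chr1:171234350-171234599, minus strand: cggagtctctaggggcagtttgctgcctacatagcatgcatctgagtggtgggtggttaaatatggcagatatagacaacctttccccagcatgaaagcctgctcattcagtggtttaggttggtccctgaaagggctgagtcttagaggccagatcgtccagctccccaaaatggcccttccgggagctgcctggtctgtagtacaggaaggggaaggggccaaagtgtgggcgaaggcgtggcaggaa
Mrc1, chr2:14229164-14229413, plus strand: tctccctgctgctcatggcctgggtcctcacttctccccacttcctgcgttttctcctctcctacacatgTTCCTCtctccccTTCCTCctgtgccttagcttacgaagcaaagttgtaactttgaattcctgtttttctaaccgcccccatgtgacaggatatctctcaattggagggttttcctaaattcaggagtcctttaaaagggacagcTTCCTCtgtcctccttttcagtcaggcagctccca
The match of C1qb began 30 bases before the start, that of Laptm5 38 bases and that of C1qc 193 bases. Cd68 held 2 AP-1 matches beside its GAGGAA, at 149 and 24 bases before the start. The window of Fcer1g held none of the 4 motifs.

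The arrays were alike in overall level, with median signals between 58.4 and 66.6, and 42% to 46.3% of signals on an array were under 50. High fat replicate 2 stood apart, with a mean correlation of 0.953 with the other arrays across probe sets, against 0.961 to 0.965 for the rest. Smooth muscle, the main tissue of the aorta, was present on every array, with Myh11 between 3212 and 3833 on high fat diet and between 3622 and 3920 on chow. Although the outer layer and the fat were described as taken off, adipocyte and adventitial fibroblast genes were present on every array as well. The brown adipocyte marker Ucp1 lay between 2122 and 3664, and the fibroblast marker Dcn between 3153 and 4545. Both lists are given with the other cell types.

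The comparison asked whether macrophage and myeloid genes differ in the aorta after a high fat diet. Of the 36 members, 34 had a higher mean on high fat diet and 2, Cd14 and Trem2, a lower one, where 53.9% of all genes had a higher mean. The median log2 fold change was 0.42, beside 0.02 over all 22626 probe sets and 0.03 over all genes with 1 probe set each. A fold change here is on the log2(signal + 6) scale, which understates the change of low genes. All 3 high fat arrays lay above all 3 chow arrays for 12 of the 36, which was the case for 6.06% of all probe sets, and the reverse held for Cd14 alone, beside 4.88% of all.

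None of the members passed the test. Probe sets whose mean log2 value exceeded the 40th percentile, equal to a signal of 40.7, entered limma, which kept 29 of the 36 members, and the smallest adjusted p among them was 0.353, for Fcer1g. Of the 13575 probe sets tested, 10 passed (0.0737%). An unadjusted p under 0.05 with a higher mean on high fat diet was reached by 12 of the 29 members in limma, and by 3.92% of all probe sets tested. With no filter, 15 of all 36 members reached it, beside 3.43% of all probe sets. Those 12 members numbered 7 when high fat replicate 2 was left out and 6 when chow replicate 2 was. In bulk RNA pools, a difference in the number of myeloid cells, in RNA per cell or in other tissue of the pool cannot be told apart. None of these was tested.

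**Figure D1:**
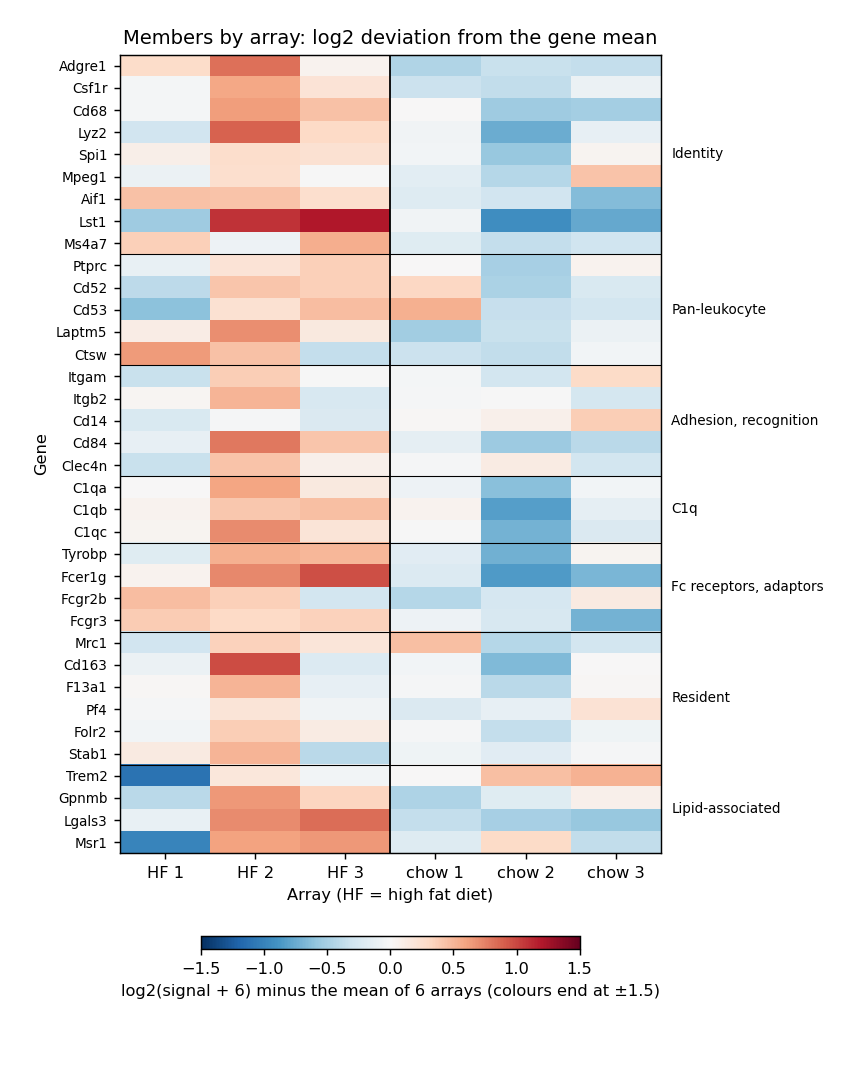
Each row is 1 of the 36 members and each column 1 array, high fat diet (HF) on the left. Colour gives log2(signal + 6) minus the gene's mean over 6 arrays, from blue (lower) to red (higher): high fat replicate 2 is above the mean for 34 members and chow replicate 2 below it for 32.

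The size of the difference varied from pool to pool. High fat replicate 2 was the highest of the 6 arrays for 19 of the 36 members, beside 30.7% of all genes, and chow replicate 2 was the lowest for 20 members, beside 14.6% of all genes. High fat replicate 1 lay above the mean of the 6 arrays for 14 members, high fat replicate 3 for 25, chow replicate 1 for 8 and chow replicate 3 for 12. The mean log2 deviation of the 36 members was -0.09, 0.49 and 0.22 in high fat replicates 1, 2 and 3, against -0.10, -0.37 and -0.15 in chow replicates 1, 2 and 3. High fat replicate 1 was thus level with the highest chow pool. Its stated age and sex labels differ from those of the other high fat pools, and their part was not tested.

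Genes that define macrophage identity had a higher mean on high fat diet for 9 of 9, with a median log2 fold change of 0.61. All high fat pools lay above all chow pools for 5 of the 9, beside 6.06% of all probe sets. An unadjusted p under 0.05 in limma with a higher mean was found for 4 of the 7 tested, beside 3.92% of all probe sets tested. None passed after adjustment. Adgre1, the F4/80 antigen of mouse macrophages, had signals of 205.9, 303.8 and 175.4 on high fat diet, against 122.1, 133.1 and 130.6 on chow. The chow pools were close together and every high fat pool exceeded them, and its log2 fold change was 0.76 ± 0.20 (SE; limma, adjusted p = 0.452). Csf1r, the receptor for colony stimulating factor 1 and interleukin 34, had 1156.7, 1767.9 and 1362.9 on high fat diet, against 943.7, 911.2 and 1108.9 on chow. Its groups did not overlap either, although high fat replicate 1 exceeded chow replicate 3 by little, and its log2 fold change was 0.51 ± 0.17 (adjusted p = 0.54). For Csf1r 2 further probe sets gave 0.65 and 0.28, with overlapping groups.

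Cd68, a glycoprotein of macrophage lysosomes, had 76.7, 123.9 and 108.4 on high fat diet, against 78.7, 52.4 and 53.0 on chow. High fat replicate 1 and chow replicate 1 were level, and the remaining pools were apart (log2 fold change 0.69 ± 0.24, adjusted p = 0.58). Lyz2, the lysozyme of macrophages and granulocytes, ran from 513.9 to 1167.2 on high fat diet and from 372.4 to 606.6 on chow. Ms4a7, a membrane protein of macrophages, had 88.0, 63.4 and 100.4 on high fat diet, against 58.8, 51.3 and 53.7 on chow, which did not overlap. Spi1, the myeloid transcription factor PU.1, had 58.5 to 66.9 on high fat diet and 34.8 to 56.4 on chow, close to the filter. Mpeg1, which encodes a pore-forming protein of macrophages, overlapped, with means of 113.7 ± 15.2 and 107.7 ± 35.7 on high fat diet and on chow (SD). Aif1, an actin-binding protein also known as Iba1, and Lst1, a transmembrane protein of leukocytes, were under the filter and not tested. Aif1 had 41.1 to 47.8 on high fat diet and 19.2 to 28.7 on chow, and Lst1 had 9.8 to 46.9 on high fat diet and 6 to 16.1 on chow.

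The Fc receptors and their adaptors were higher in mean for 4 of 4, with a median of 0.62. Fcer1g, the gamma chain through which Fc receptors signal, had 76.7, 125.4 and 150.2 on high fat diet, against 63.5, 38.4 and 43.9 on chow. The diets did not overlap, and the log2 fold change was 1.15 ± 0.27 (adjusted p = 0.353). It lay between 0.96 and 1.42 when single arrays were left out, while that of Adgre1 lay between 0.54 and 0.93 and that of Csf1r between 0.35 and 0.65. Fcgr3, an activating receptor for immunoglobulin G that needs this chain, had 99.5, 93.3 and 97.3 on high fat diet, against 70.7, 62.8 and 43.7 on chow. The high fat pools were close together and all above the chow pools (0.68 ± 0.21, adjusted p = 0.515).

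Tyrobp, the adaptor known as DAP12 that Trem2 uses, had 143.1, 238.9 and 231.7 on high fat diet, against 143.6, 96.6 and 168.1 on chow. High fat replicate 1 fell inside the chow range, so that the groups overlapped (0.57 ± 0.25, adjusted p = 0.684), and the log2 fold change was 0.35 when chow replicate 2 was left out. Fcgr2b, the inhibitory receptor for immunoglobulin G, had 579.3, 534.5 and 342.9 on high fat diet, against 309.2, 348.9 and 459.9 on chow. Those groups overlapped, and 3 further Fcgr2b probe sets gave log2 fold changes of -0.07, 0.13 and 0.04, smaller than the 0.36 of the brightest. Mast cells, which also carry Fcer1g, were looked at beside it. Of 8 mast cell markers 4 were higher on all high fat pools and 1 lower, beside 6.06% and 4.88% of all probe sets. The summed signal of the 8 was 362.4 to 474.3 on high fat diet and 311.3 to 331.2 on chow. Only 3 of the 8 passed the filter. The part of mast cells in the Fcer1g result was not tested.

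The 3 chains of C1q, the complement component that tissue macrophages make, had log2 fold changes of 0.49, 0.60 and 0.62. C1qa had 463.6, 701.9 and 512.1 on high fat diet, against 439.7, 299.2 and 452.1 on chow. C1qb had 322.6, 415.2 and 429.8 on high fat diet, against 324.2, 173.3 and 283.7 on chow. C1qc had 323.3, 518.5 and 360.0 on high fat diet, against 312.5, 190.1 and 270.1 on chow. For all 3, chow replicate 2 was the lowest array, and high fat replicate 1 was near the highest chow array. The adjusted p was 0.676 for C1qa, 0.626 for C1qb and 0.587 for C1qc in limma. When chow replicate 2 was left out the log2 fold change was 0.30 for C1qa and 0.34 for C1qb, and that of C1qa was 0.32 when high fat replicate 2 was. The other 2 C1qb probe sets, of the kind that can bind related transcripts, had -0.07 and 0.35, and averaging its probe sets gave 0.30.

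**Figure D2:**
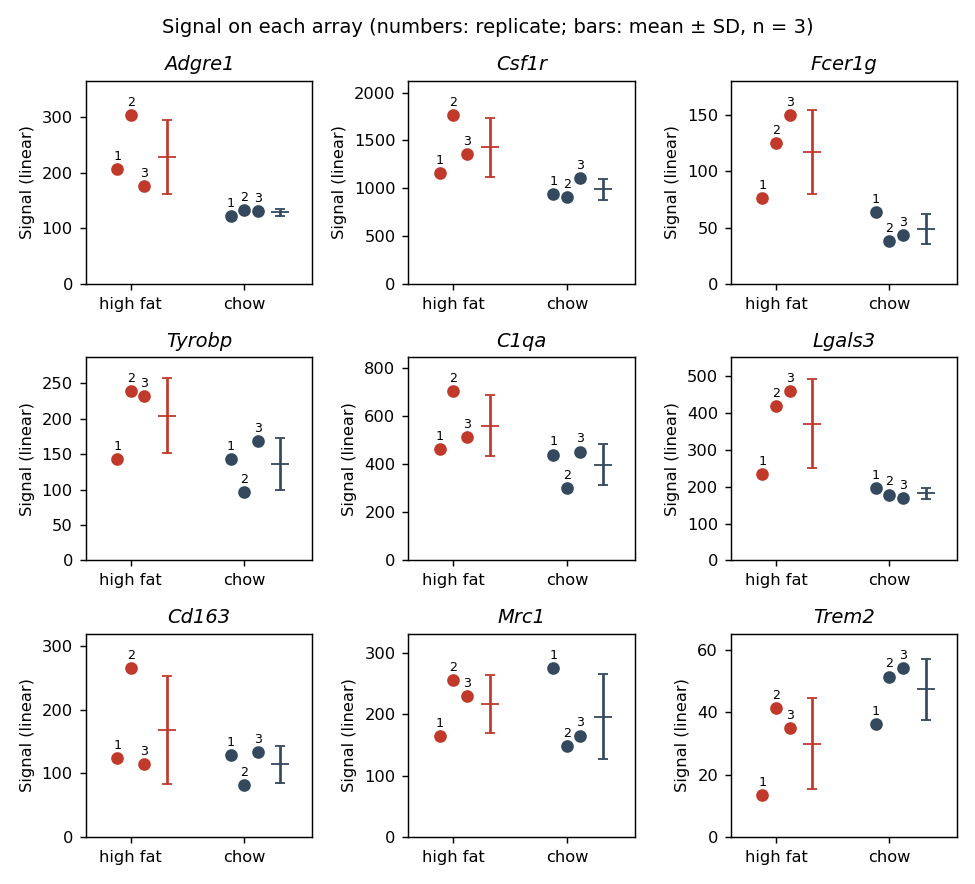
Signal on a linear scale from 0 for 9 members, with a point per array numbered by replicate, high fat diet left of chow, and mean ± SD (n = 3) beside the points. Adgre1, Csf1r, Fcer1g, C1qa and Lgals3 do not overlap between diets, while Tyrobp, Cd163, Mrc1 and Trem2 do.

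Genes of leukocytes in general, with the narrower and low Ctsw counted among them, were higher in mean for 5 of 5, with a median of 0.30. Over the 4 tested, without Ctsw, the median was 0.28. Laptm5, a lysosomal membrane protein of blood-derived cells, had 266.0, 402.8 and 273.5 on high fat diet, against 170.0, 195.1 and 231.1 on chow. Its groups did not overlap (0.63 ± 0.20, adjusted p = 0.518). The log2 fold changes of its 2 further probe sets were 0.52 and 0.07. Ptprc, the CD45 phosphatase found on all leukocytes, had 78.6, 98.6 and 110.6 on high fat diet, against 85.3, 58.3 and 88.3 on chow. Cd52, a small surface glycoprotein, had 58.9, 107.4 and 103.0 on high fat diet, against 99.8, 55.2 and 66.4 on chow. Both overlapped, with adjusted p of 0.812 for Ptprc and 0.88 for Cd52, and in both chow replicate 2 was lowest. Cd53, a tetraspanin of leukocytes, had means of 90.4 ± 33.8 and 86.0 ± 33.3 on high fat diet and on chow. Ctsw, a cathepsin of natural killer and cytotoxic T cells, lay between 5.8 and 17.6 on all arrays and was not tested.

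Among genes of adhesion and recognition the values went both ways, with a median of 0.11. Cd14, the co-receptor for bacterial lipopolysaccharide, had 125.7, 146.4 and 126.9 on high fat diet, against 150.6, 157.3 and 193.3 on chow. It was the member for which every high fat pool was below every chow pool (-0.31 ± 0.17, adjusted p = 0.752). Itgb2, the beta-2 integrin chain CD18, had 94.7, 134.9 and 77.4 on high fat diet, against 91.7, 92.1 and 76.0 on chow. Clec4n, the lectin known as dectin-2, had 38.1, 68.8 and 52.6 on high fat diet, against 49.2, 54.7 and 39.9 on chow. Both overlapped and both lost the direction of their means without high fat replicate 2. Itgam, the CD11b chain that pairs with Itgb2, was under the filter at 13.7 to 26.0 on high fat diet and 14.5 to 24.3 on chow. Cd84, a receptor of the SLAM family, was under it too, with 26.4, 55.0 and 41.0 on high fat diet, against 26.2, 18.3 and 20.8 on chow.

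The resident genes had higher means for 6 of 6, but smaller differences, with a median of 0.22. The groups overlapped for each of the 6, as for most probe sets, of which 6.06% were higher and 4.88% lower without overlap. Mrc1, the mannose receptor CD206, had 164.1, 256.4 and 229.2 on high fat diet, against 275.9, 148.0 and 165.4 on chow. Its highest pool was on chow, and its log2 fold change was 0.17 ± 0.25 (adjusted p = 0.911). Cd163, the scavenger receptor for haemoglobin bound to haptoglobin, had 124.0, 266.1 and 114.2 on high fat diet, against 128.4, 81.2 and 132.9 on chow. One pool, high fat replicate 2, set its mean apart, and the log2 fold change of 0.46 became 0.09 without it.

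F13a1, a subunit of coagulation factor XIII that resident macrophages make, had 514.3, 725.8 and 465.5 on high fat diet, against 501.6, 380.7 and 514.0 on chow. Folr2, a folate receptor, had 112.1, 151.2 and 126.5 on high fat diet, against 113.9, 88.7 and 110.8 on chow. Stab1, a scavenger receptor of macrophages and some endothelium, had 183.2, 239.8 and 123.4 on high fat diet, against 158.7, 147.1 and 164.4 on chow. In these genes high fat replicate 2 was again the highest array. Pf4, a chemokine of platelets and resident macrophages, had 454.1, 527.5 and 442.8 on high fat diet, against 396.4, 423.1 and 534.9 on chow, the smallest difference of the 6 at 0.08 ± 0.16 (adjusted p = 0.938). Without high fat replicate 2 the resident median was 0.06.

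The lipid-associated genes differed among themselves, with higher means for 3 of 4 and a median of 0.28. Leaving out high fat replicate 1 gave a median of 0.70, and leaving out high fat replicate 2 gave 0.04. Lgals3, galectin 3, had 234.3, 419.5 and 458.3 on high fat diet, against 197.3, 178.7 and 169.4 on chow. The groups did not overlap, and its log2 fold change was 0.95 ± 0.23 (adjusted p = 0.402). High fat replicates 2 and 3 were far above every chow pool and high fat replicate 1 was closer to them. Without high fat replicate 1 it passed, with a log2 fold change of 1.25 (adjusted p = 0.0283, limma). Gpnmb, a glycoprotein of lysosome-rich macrophages, had 64.3, 139.8 and 109.7 on high fat diet, against 61.1, 76.0 and 91.8 on chow, which overlapped (0.38 ± 0.27, adjusted p = 0.81).

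Trem2, the lipid receptor that gives lipid-associated macrophages their usual name, was under the filter and had the lower mean on high fat diet. It had 13.4, 41.2 and 34.9 on high fat diet, against 36.2, 51.4 and 54.2 on chow, a log2 fold change of -0.65 with no test. Its second probe set lay between 3.7 and 6.4 on all arrays, near the floor of the scale, with the higher values on high fat diet. Msr1, the scavenger receptor A that takes up modified lipoprotein, was under the filter as well, with 12.9, 51.0 and 53.0 on high fat diet, against 26.8, 39.6 and 23.1 on chow. In both genes high fat replicate 1 was the lowest of the 6 arrays. At signals this low background and expression were not separated, since no detection calls were used.

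**Figure D3:**
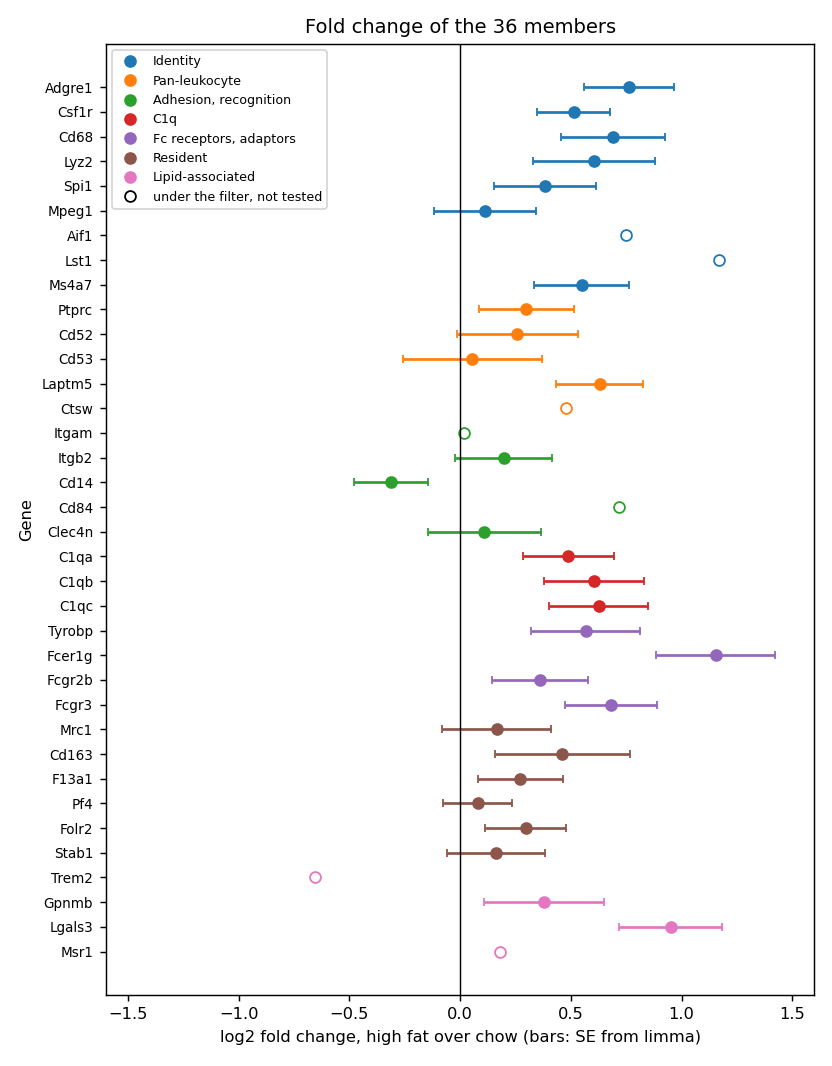
Log2 fold change of high fat diet over chow for each of the 36 members, coloured by role, with the SE from limma as bars. Open points were under the filter and not tested, and 34 of 36 points lie right of 0.

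Set side by side, resident and lipid-associated genes had nearly the same mean difference between diets, 0.24 and 0.21 on the log2 scale, from different arrays. Trem2 and Msr1, 2 of the 4 lipid-associated genes, were under the filter. The median log2 fold change over the 2 tested, Lgals3 and Gpnmb, was 0.66, beside 0.22 over the 6 resident genes, which were all tested. The resident genes deviated by -0.05, 0.49 and -0.08 in high fat replicates 1, 2 and 3, against 0.02, -0.36 and -0.02 in chow replicates 1, 2 and 3. The lipid-associated genes deviated by -0.65, 0.53 and 0.44 in high fat replicates 1, 2 and 3, against -0.25, 0.02 and -0.08 in chow replicates 1, 2 and 3. In high fat replicate 1 the untested Trem2 and Msr1 deviated by -1.11 and -0.99, and the tested Gpnmb and Lgals3 by -0.40 and -0.12. Resident minus lipid-associated was 0.61, -0.05 and -0.52 on high fat diet and 0.27, -0.37 and 0.07 on chow, so that pools of one diet differed by more than the diets did. The 26 members of neither group had a median log2 fold change of 0.53. The mean of those 26 minus that of the resident genes was 0.03, 0.00 and 0.33 on high fat diet. On chow it was -0.11, -0.08 and -0.17. The diets did not overlap, with high fat replicate 3 far from the other pools. This contrast was not among those planned and was not tested.

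**Figure D4:**
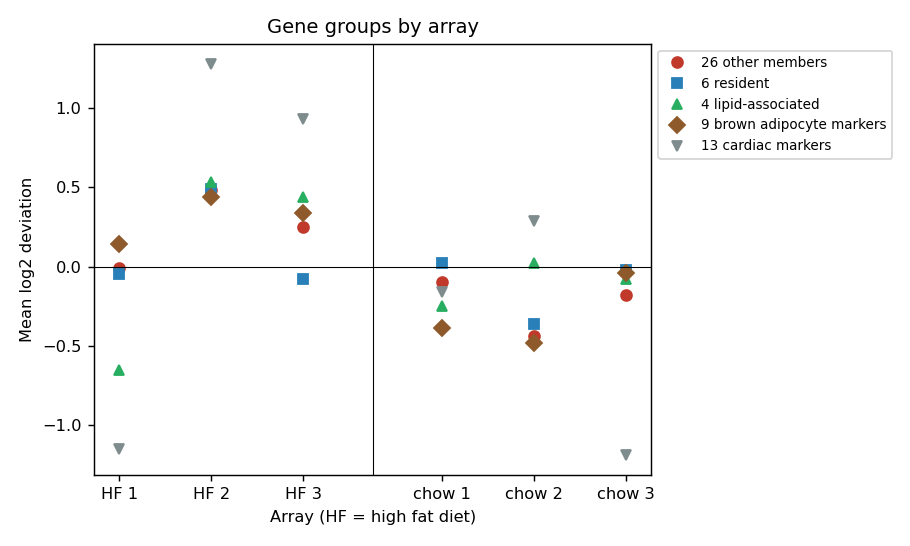
Mean log2 deviation from the mean of 6 arrays for the resident, lipid-associated and 26 other members and for 2 marker lists of other cells, by array, high fat diet (HF) left. Lipid-associated members run from -0.65 to 0.53 within the high fat group, and cardiac markers from -1.15 to 1.28. Of the 4 lipid-associated members, 2 (Trem2 and Msr1) were under the filter.

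Other genes of macrophage biology were examined as 5 lists, and none of their genes passed in limma. An unadjusted p under 0.05 with a higher mean on high fat diet was found for 13 of the 52 genes tested, beside 3.92% of all probe sets tested. With a lower mean it was found for 0 of the 52, beside 422 of the 13575 probe sets tested. Csf1r, itself a member, was among the 13. Further lipid-associated genes had higher means for 18 of 22, with a median of 0.22. Plin2, a lipid droplet coat, Cd36, a fatty acid transporter, and Abcg1, a sterol exporter, had the smallest p, with log2 fold changes of 1.31, 0.88 and 0.66. Adipocytes express Plin2 and Cd36 too. Plin2 passed when high fat replicate 1 was left out (1.54, adjusted p = 0.0305, limma) and when chow replicate 3 was (1.56, adjusted p = 0.0249). Mmp12, a macrophage elastase, was under the filter.

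Further resident genes had higher means for 9 of 14, with a median of 0.32 that became 0.15 when high fat replicate 2 was left out. Ccl8, a chemokine, had 236.3, 398.5 and 232.8 on high fat diet, against 148.6, 202.5 and 154.8 on chow, and Vsig4, a complement receptor, had 63.0, 91.7 and 59.0 on high fat diet, against 52.8, 37.4 and 40.2 on chow. In both genes the diets did not overlap. Cbr2 went the other way without overlap, with 1562.5, 1412.7 and 1488.7 on high fat diet, against 1618.5, 1775.0 and 1720.5 on chow. Over the list, 2 of 14 genes were higher without overlap and 1 lower, beside 6.06% and 4.88% of all probe sets. Lyve1, a hyaluronan receptor shared with lymphatic endothelium, had 142.9 to 225.0 on high fat diet and 167.7 to 247.4 on chow. The signalling list, which holds kinases, inhibitory phosphatases and an adaptor among others, had higher means for 12 of 16 genes, with a median of 0.18. Ptpn6, the phosphatase SHP-1, had 143.2, 148.7 and 121.9 on high fat diet, against 94.2, 78.0 and 96.2 on chow (0.59 ± 0.17, adjusted p = 0.497). Hcst, the adaptor DAP10, had a log2 fold change of 0.56, while Syk, the kinase that the adaptors recruit, had 0.29 and Btk, a kinase also used in B cells, was lower in mean at -0.41 and not tested.

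The growth factor list had a median of 0.01 over 11 genes, Csf1r among them, and of 0.27 over the 6 tested. Cebpa and Csf2ra, of next smallest p after Csf1r, had log2 fold changes of 0.315 and 0.464. Csf1, a ligand of Csf1r, had 236.0, 280.8 and 203.8 on high fat diet, against 264.1, 324.1 and 304.7 on chow, which overlapped. The means of ligand and receptor differed in opposite directions, neither past the test. Il34, the other ligand, was under the filter at 18.2 to 42.6 on high fat diet and 23.9 to 39.1 on chow. Monocyte genes had higher means for 6 of 9, with a median of 0.36. Those 6 were the ones tested, with a median of 0.55. Over the list, 2 of 9 genes were higher without overlap and 0 lower, beside 6.06% and 4.88% of all probe sets. Fcgr4, an Fc receptor, averaged 84.8 ± 10.8 on high fat diet and 54.5 ± 15.6 on chow (SD), without overlap. For Ms4a6c and Fcgr1 the log2 fold changes were 0.57 and 0.54. Ccr2 and Cx3cr1, the chemokine receptors that divide monocytes into classes, were under the filter and had the lower means on high fat diet, as did Ifitm6.

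Markers of other cells were measured beside these genes. T and natural killer cell markers were low, with 2 of 13 past the filter and a summed signal of 349.4 to 445.6 on high fat diet and 293.7 to 372.1 on chow, and Cd3e lay between 7.0 and 30.4. Neutrophil markers had a median log2 fold change of 0.12 over 10, and their summed signal was 390.1 to 480.5 on high fat diet and 362.0 to 543.8 on chow. B cell markers had a median of 0.12 over 7 of them. Ighm, the immunoglobulin M heavy chain, had 224.6, 898.9 and 263.4 on high fat diet, against 149.6, 142.0 and 276.4 on chow, with high fat replicate 2 far above the rest.

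Endothelial markers had higher means for 9 of 10, with a median of 0.26. For 4 of the 10 all high fat pools lay above all chow pools, beside 6.06% of all probe sets. The summed signal of the 10 markers was 1989 to 2404 on high fat diet and 1793 to 1942 on chow. Their mean deviation was 0.15, 0.29 and 0.00 in high fat replicates 1, 2 and 3, against -0.14, -0.12 and -0.18 in chow replicates 1, 2 and 3. The smallest p was that of Cldn5, a tight junction protein, with a log2 fold change of 0.94 (adjusted p = 0.0873, limma). Dendritic cell markers had higher means for 6 of 8, with a median of 0.12, and a summed signal of 270.6 to 312.4 on high fat diet and 255.2 to 294.2 on chow. The part of endothelium or dendritic cells in the macrophage result was not tested.

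White adipocyte markers went both ways, with higher means for 6 of 8 and a median of 0.11, and their summed signal was 9567 to 10615 on high fat diet and 9959 to 13158 on chow. Retn, which encodes resistin, fell to 215.4 to 217.8 on high fat diet, against 386.0 to 523.8 on chow (log2 fold change -1.06, adjusted p = 0.0435, limma). For Car3, a carbonic anhydrase, the diets differed by -0.91 on the log2 scale (limma, adjusted p = 0.0768). Lep, which encodes leptin, had 56.2 to 111.4 on high fat diet and 7.8 to 28.2 on chow and was under the filter. Adipoq, which encodes adiponectin, overlapped at 1815 to 1890 on high fat diet and 1559 to 2190 on chow.

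Brown adipocyte markers had a higher mean on high fat diet for all 9, with a median log2 fold change of 0.52. Their summed signal was 10564 to 12763 on high fat diet, against 6807 to 9012 on chow. Their mean deviation was 0.14, 0.44 and 0.34 in high fat replicates 1, 2 and 3, against -0.39, -0.48 and -0.04 in chow replicates 1, 2 and 3, with the same highest and lowest array as the members. Cardiac muscle markers were higher in mean for 13 of 13, with a summed signal of 1185 to 8722 on high fat diet and 1114 to 4468 on chow. Their deviations were -1.15, 1.28 and 0.93 on high fat diet, against -0.16, 0.29 and -1.19 on chow. High fat replicate 2 was the highest array here, as for the members. Chow replicate 2, the lowest array for the members, was above the mean here, and chow replicate 3 was lowest. Adventitial fibroblast markers, with a median of -0.08 over 10, had a summed signal of 15250 to 15719 on high fat diet and 15651 to 17248 on chow. Smooth muscle markers had lower means on high fat diet for 9 of 10, with a median of -0.14. The summed signal of smooth muscle markers overlapped, at 26962 to 27695 on high fat diet and 26293 to 32433 on chow. The part of fat or heart tissue in the macrophage result was not tested.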

How the data were processed

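RNA of mouse aorta was measured on 6 Affymetrix arrays. The authors deposited linear intensity values, and the submitters' processing notes name MAS5, with its version not given in the sources used here. A 2% trimmed mean of signals was 150.05 on each array, so the deposited scaling was kept. Of 22690 rows, 64 controls were left out, and 20380 of the 22626 probe sets had 1 gene symbol, 691 several and 1555 none in the platform annotation. Signals became log2(signal + 6), the pseudocount being the 10th percentile of all signals, and probe sets above the 40th percentile of mean log2 value, 13575 in number, were tested with limma 3.58.1 in R 4.3.3 (lmFit and two-sided eBayes tests, with a trend in the variance). Benjamini-Hochberg adjustment ran over all of them, with a threshold of 0.05. An exact permutation test of 3 pools against 3 cannot give a p below 0.1. The pools were described as independent, so the spread is that between pools. The number of arrays limits the precision.

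The members and the gene lists were chosen with earlier results of these data known. By rule, values on every array are given for all resident and lipid-associated members and for the 3 tested members of smallest p in every other role, and of the other lists up to 3 genes of smallest p are named; Cd84, Fcgr2b, Ms4a7 and further genes of the lists were named after their values were seen. Alternatives were a pseudocount of 1 or 21, omitting the filter or raising it to the 60th percentile, equalising medians, quantile normalization, a robust fit, array weights, omitting the variance trend, blocking on the replicate number, leaving out each array, and averaging a gene's probe sets. Tables were made with pandas 2.3.3 and figures with matplotlib 3.10.9 in Python 3.11.15.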

Additional observations from a re-analysis of the deposited data

How the results depend on the processing

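The number of probe sets past the threshold, 10, became 6 with no filter, 5 with no variance trend, 5 with the replicate number as a block, 6 when the probe sets of each gene were averaged, and 5 to 16 when single arrays were left out. The members past it numbered 0 in each setting except without high fat replicate 1, where 1, Lgals3, passed, so that the range over left-out arrays was 0 to 1. The same range of 0 to 1 held for the further lipid-associated genes. The 12 members with an unadjusted p under 0.05 and a higher mean became 6 to 13 when single arrays were left out and 8 of 19 tested with the 60th percentile filter. The median over the members was 0.34 to 0.45 in the settings that keep all arrays and 0.29 to 0.56 when single arrays were left out. The resident median was 0.06 to 0.36, and the lipid-associated median 0.04 to 0.70, over left-out arrays. The difference between these groups ran from -0.27 to 0.29. For the growth factor list the median ran from -0.01 to 0.16, for the signalling list from 0.09 to 0.17, with 0.11 at a pseudocount of 21, for the monocyte list from 0.27 to 0.54, for the further resident list from 0.15 to 0.49 and for the further lipid-associated list from 0.12 to 0.28.

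Of 36 members, 27 kept the direction of their means in all 17 other settings. With the arrays all kept, Itgam had -0.04 with quantile normalization, -0.02 with equal medians and -0.02 with array weights, and Msr1 had -0.02 with array weights and -0.12 when its probe sets were averaged. Over left-out arrays the log2 fold change ran for Cd53 from -0.17 to 0.37, for Itgam from -0.16 to 0.19, for Itgb2 from -0.01 to 0.37, for Clec4n from -0.08 to 0.31, for Stab1 from -0.06 to 0.41, for Msr1 from -0.10 to 0.72, for Pf4 from -0.01 to 0.21, for Mpeg1 from -0.07 to 0.35 and for Mrc1 from -0.01 to 0.43. The cause was not tested. The median over all probe sets stayed between -0.02 and 0.05 in these settings. Low signal limits Aif1, Lst1, Ctsw, Itgam, Cd84, Trem2 and Msr1, which were under the filter. In the fit without a filter their adjusted p-values were 0.782, 0.814, 0.881, 0.995, 0.827, 0.865 and 0.972 in limma.

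Same-numbered pools of the diets did not deviate together (correlations of 0.034, 0.171 and -0.111), so the numbers were not taken as pairs.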
